A study of Sus scrofa with 16 samples.

Results

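The miR-29 family is a group of small RNAs that share a seed, the stretch near the 5′ end that pairs with target mRNAs. Members were every row of the miRNA count table named ssc-miR-29 with the letter a, b or c (ssc for Sus scrofa, the pig), and the rule found 3 of 1940 entries, ssc-miR-29a, ssc-miR-29b and ssc-miR-29c. All 3 belong to the 216 known miRNAs of the table, and the other 1724 entries are predicted miRNAs. The members were chosen by name and no measured value entered the rule, although the family was picked with earlier results of these data known.

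A miRNA guides a silencing complex to matching sites, mostly in the 3′ ends of mRNAs, and lowers the stability and translation of those mRNAs. The miR-29 family is best known for repressing genes of the extracellular matrix, among them fibrillar and basement membrane collagens, elastin and fibrillin, and in fibroblasts it is lowered by TGF-beta signalling and acts against scarring. The ovary rebuilds its matrix in every cycle, as follicles enlarge and rupture and as corpora lutea form and regress.

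Small RNA was sequenced from ovaries of 16 Canadian Large White sows, untreated and unrelated by the herd's records, with 1 library per sow and 4 sows per group. The luteal phase was sampled on day 14, counted from the first day of estrus, in sows of high (LH) and low (LL) fecundity, and the follicular phase on day 20, again in sows of high (FH) and low (FL) fecundity. Fecundity class was set by litter size, and the high-fecundity sows had also borne more litters, so fecundity and parity are partly confounded. The paper states that sows of similarly high or low parity were picked within each class, to limit the effect of parity on litter size. The RNA came from whole ovarian tissue, in which fewer cells of a type and less RNA per cell cannot be told apart.

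Library totals ran from 8998496 to 37194836 counts, of which known miRNAs took 97.1% to 99.2%. Levels are given as CPM, counts scaled to a common library size, with TMM factors, which align libraries through the bulk of their entries. The 29a count was lowest at 34693 and the 29b count at 1752. Counting error there, with each read taken as a separate molecule, is 0.537% and 2.39% of the count, far below the spread between sows. No other entry of the table had the same counts as a member. The table names no arm for the members, and mature miR-29a and miR-29c are nearly identical in sequence, so the division of reads between these entries is uncertain. In RefSeq annotation of the Sscrofa11.1 assembly, MIR29A lies next to MIR29B-1 and MIR29C next to MIR29B-2, and the single 29b entry does not separate the products of the 29B genes.

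miR-29a carried most of the family's counts in every library, with a share of 88.4% to 97.7%. Its CPM was 3332, 6949, 2699 and 5458 in the LH sows and 3059, 1789, 2980.5 and 4691 in the LL sows. It was 4761, 6942, 6523 and 9261 in the FH sows and 6503, 4058, 9134 and 4079 in the FL sows. The lowest level of all was in an LL ovary, and every pair of groups overlapped except LL and FH, which differ in both phase and fecundity. With library totals alone as the scale the lowest level was in LH3, and LL (up to 5575 CPM) overlapped FH (from 4485 CPM). On that scale the order of means was FL (5367 CPM), FH (5327), LL (4468) and LH (4314). With TMM the group means ran in the order FH (6872 ± 1852 CPM), FL (5943 ± 2417), LH (4609 ± 1956) and LL (3129.9 ± 1192; SD, n = 4), and each difference between neighbours in this order was smaller than the larger SD of the pair.

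miR-29b was far below miR-29a in every library, at 2.31% to 8.72% of the family's counts. In LH its CPM was 109.9, 179, 248 and 265, and in LL it was 117, 91.5, 104 and 111. In FH it was 244, 340.4, 308 and 453, and in FL it was 378, 358, 588 and 389.7. With TMM the LL ovaries stood low and close together, 3 of the FL ovaries lay between 358 and 389.7 CPM with FL3 well above them, and all FL and FH values were above all LL values. The order of means was FL (428 ± 107 CPM), FH (336 ± 87.4), LH (200.4 ± 71.0) and LL (105.9 ± 10.9; SD, n = 4), and each group overlapped with its neighbour in this order. With library totals alone LL was at 155 ± 35.7 CPM (SD, n = 4) and spanned 125 to 204, inside the LH range of 117 to 242, so the closeness of the LL ovaries depended on the scaling.

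**Figure D1:**
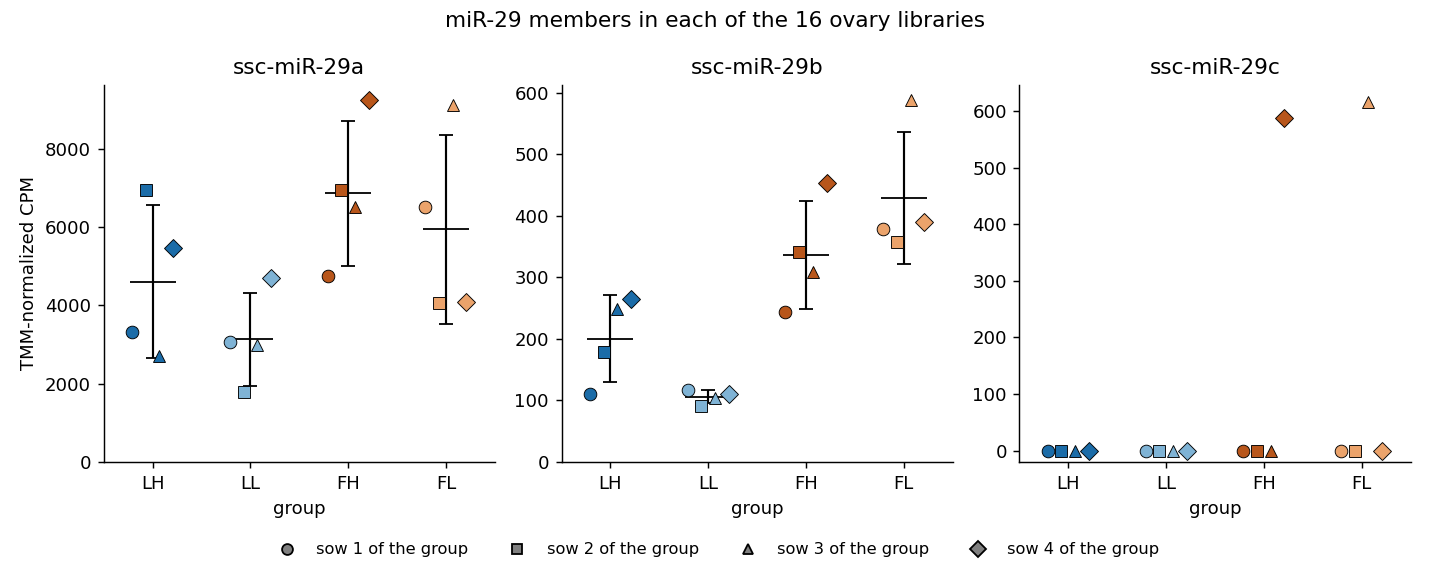
CPM (TMM-scaled) of miR-29a, miR-29b and miR-29c in each of the 16 libraries, by group (LH, LL, FH, FL), 1 point per sow, with the group mean and SD. The LL sows form a tight cluster for miR-29b at 91.5 to 117 CPM on this scale (125 to 204 with library totals alone), and miR-29c is above 0 only in FH4 and FL3.

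miR-29c was listed at 0 in 14 of the 16 libraries, including all luteal ones. The 2 exceptions were FH4, with 16206 counts (589 CPM), and FL3, with 6482 counts (616 CPM). There it was counted more often than miR-29b. These counts came to 6.36% and 6.74% of the miR-29a count in the same library, whereas a count of 0, which allows up to 3 counts, limits miR-29c to between 0.00201% and 0.00865% of miR-29a in the other 14. This limit covers counting error only, because PCR copies of a molecule were not marked. FH4 and FL3 also held the 2 highest CPM values of all libraries for miR-29a and again for miR-29b, the latter with TMM only, since FL4 (479 CPM) was highest for miR-29b with library totals alone. Of the 216 known miRNAs, 16 had 0 counts in some library and at least 1000 in another, 2 of these were counted in no more than 2 libraries, and miR-29c alone had FH4 and FL3 as its libraries. With 1 sow above 0 in each follicular group, miR-29c did not pass edgeR's filter on low counts and was not tested.

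miR-29b was lower in luteal than in follicular ovaries. Over both fecundity classes miR-29b was 153 ± 69.0 CPM in the luteal and 382 ± 103 CPM in the follicular ovaries (SD, n = 8), and the phases overlapped only through LH3 and LH4, which lay above FH1. edgeR's quasi-likelihood test on all 16 libraries, with fecundity as a term, gave a log2 fold change (luteal over follicular) of -1.38 (SE 0.276, 95% confidence interval -1.97 to -0.79) and a Benjamini-Hochberg adjusted p of 0.00515 over the 445 entries tested. For miR-29a the means were 3870 ± 1695 and 6407 ± 2054 CPM (SD, n = 8), with wide overlap between phases. Its log2 fold change was -0.75 (SE 0.263, interval -1.31 to -0.19; edgeR adjusted p = 0.0694).

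The study called a miRNA where unadjusted P was under 0.05 and the log2 fold change was 1 or more in either direction, and by this threshold 1 of the 2 members tested (miR-29b) was down-regulated in the luteal ovary. In the same fit 88 of the 445 entries (19.8%) passed this threshold, 34 of them (7.64%) in the lower direction, and 67 (15.1%) had an adjusted p under 0.05. TMM scaling mattered for the size of the change, because the median of all tested entries moved from 0.17 to 0.56 on the log2 scale when libraries were scaled by their totals only. Under that scaling 81 entries passed as higher and 17 as lower, in place of 54 and 34, and miR-29b was at -0.95 (edgeR adjusted p = 0.0190), short of the fold threshold. miR-29a was then at -0.28 (interval -0.75 to 0.18, edgeR adjusted p = 0.421), an interval that includes 0. Relative to the median of all entries, miR-29b lay at -1.55 with TMM and -1.50 without, and miR-29a at -0.92 and -0.84, but subtracting the median removes most of any change of scale by construction.

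Within low-fecundity sows (LL vs. FL) the phase difference of miR-29b was the largest among the comparisons of the 2 members that passed the filter. The groups did not overlap, and the log2 fold change was -1.90 (SE 0.275, interval -2.53 to -1.26; edgeR adjusted p = 0.00682). The exact two-sided permutation test gave p = 0.0286, the smallest that 4 against 4 sows can give. In this comparison 101 of 339 entries (29.8%) passed the study's threshold, 48 of them (14.2%) as lower, 60 (17.7%) had an adjusted p under 0.05 and 100 (29.5%) had groups without overlap, so miR-29b was 1 of many that separated LL from FL. For miR-29a the log2 fold change was -0.83 (SE 0.408, interval -1.77 to 0.12; edgeR adjusted p = 0.201). Its permutation p was 0.0857 (exact, two-sided). Without LL4, FL2 or FL4, miR-29a passed the threshold too, at -1.08, -1.14 and -1.16. With library totals alone as the scale, miR-29a was at -0.27 (interval -0.96 to 0.42; exact permutation p = 0.457). On that scale miR-29b was at -1.39 (interval -2.19 to -0.58; edgeR adjusted p = 0.0331).

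Within high-fecundity sows (LH vs. FH) 0 of the 2 members tested passed the threshold by edgeR or by DESeq2, against 40 of 323 entries (12.4%), and neither had an unadjusted edgeR P under 0.05. miR-29b had a log2 fold change of -0.71 (SE 0.322, interval -1.45 to 0.03; edgeR adjusted p = 0.315) and miR-29a of -0.54 (SE 0.322, interval -1.28 to 0.20; edgeR adjusted p = 0.431). Exact two-sided permutation tests gave p = 0.0857 and p = 0.2. With the share of clean reads as a covariate miR-29b was at -1.23 and passed the threshold.

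**Figure D2:**
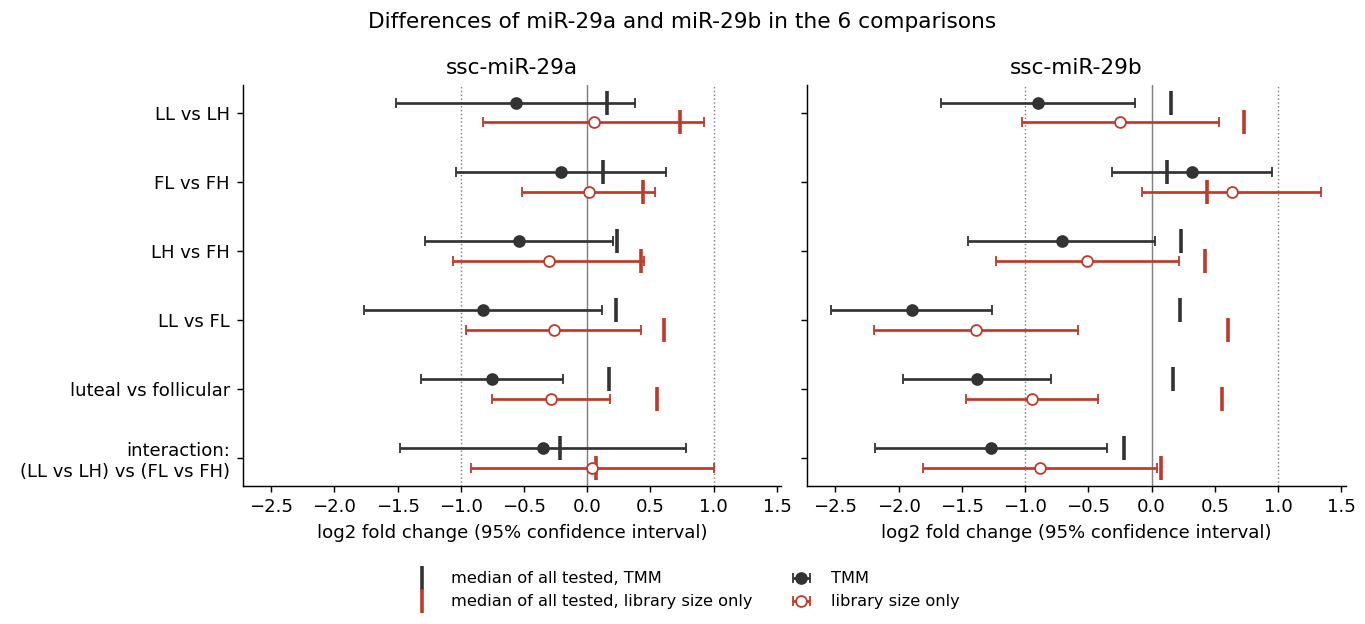
Log2 fold change of miR-29a and miR-29b in each comparison (edgeR, with TMM and with library totals alone), with 95% confidence intervals, beside the median of all entries tested. With TMM the miR-29b intervals that exclude 0 are those of luteal vs. follicular, LL vs. FL, LL vs. LH and the interaction. That of miR-29a excludes 0 only for luteal vs. follicular, and includes it with library totals alone (-0.75 to 0.18). On that scale the miR-29b intervals include 0 for LL vs. LH (-1.03 to 0.53) and the interaction (-1.80 to 0.045).

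Between fecundity classes, the question the study set out from, no member passed the threshold in either phase. In the luteal ovary (LL vs. LH) 0 of 2 members passed by edgeR or by DESeq2, against 47 of 362 entries (13%), and 1 of the 2 had an unadjusted edgeR P under 0.05, as did 65 entries (18%). That was miR-29b, with a log2 fold change of -0.89 (SE 0.333, interval -1.66 to -0.13; edgeR adjusted p = 0.253; exact permutation p = 0.0857). Among the LH sows LH1 alone lay within the LL range. miR-29b passed the threshold without LH1 (-1.12), without LL1 (-1.01) and with parity as a covariate (-1.64). Parity and fecundity are partly confounded, so the last value does not separate them. For miR-29a the value was -0.56 (SE 0.41, interval -1.51 to 0.38; edgeR adjusted p = 0.529). With library totals alone as the scale, the median of all entries moved from 0.15 to 0.73, miR-29b stood at -0.25 and miR-29a at 0.051, so the sign of the miR-29a difference depended on the scaling.

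In the follicular ovary (FL vs. FH) 0 of 2 members passed by either tool, against 19 of 307 entries (6.19%), and none had an edgeR P under 0.05. miR-29b had a log2 fold change of 0.32 (SE 0.273, interval -0.31 to 0.95; edgeR adjusted p = 0.781). miR-29a had one of -0.21 (SE 0.359, interval -1.04 to 0.62; edgeR adjusted p = 0.868), which became 0.011 with library totals alone and 0.13 with the share of clean reads as a covariate. Exact two-sided permutation tests gave p = 0.257 and p = 0.429.

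The miR-29b difference between fecundity classes was thus negative in the luteal and positive in the follicular phase, where its interval included 0. The interaction of fecundity and phase tested whether these differences were unequal, and not whether their signs were opposite. It was -1.27 for miR-29b on the log2 scale (SE 0.428, interval -2.18 to -0.35; edgeR adjusted p = 0.169) and -0.35 for miR-29a (SE 0.529, interval -1.48 to 0.78; adjusted p = 0.867). By the threshold 1 of the 2 members passed, against 59 of 445 entries (13.3%). With library totals alone miR-29b was at -0.88 and did not pass. edgeR gave 0 entries (0%) with an adjusted p under 0.05 and 63 (14.2%) with P under 0.05, while DESeq2 gave miR-29b an adjusted p of 0.0331. This was the 1 alternative of 27 with an adjusted p under 0.05 for miR-29b. The number of entries that DESeq2 called there is not given here. The comparisons share libraries with each other, so their values for miR-29b are not independent.

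The balance of the members needs no scaling between libraries, since it is a ratio of counts within each. miR-29b as a percentage of miR-29a was 3.30, 2.57, 9.21 and 4.85 in LH, and 3.83, 5.11, 3.51 and 2.36 in LL. It was 5.12, 4.90, 4.73 and 4.89 in FH and 5.81, 8.82, 6.43 and 9.55 in FL. All FL ovaries lay above all FH and all LL ovaries, the FH ovaries were almost equal, and the LH ovaries spanned nearly the whole range. The FL mean was 7.65 ± 1.81%, the FH mean 4.91 ± 0.163%, the LH mean 4.98 ± 2.97% and the LL mean 3.70 ± 1.13% (SD, n = 4), given as a description with no test.

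**Figure D3:**
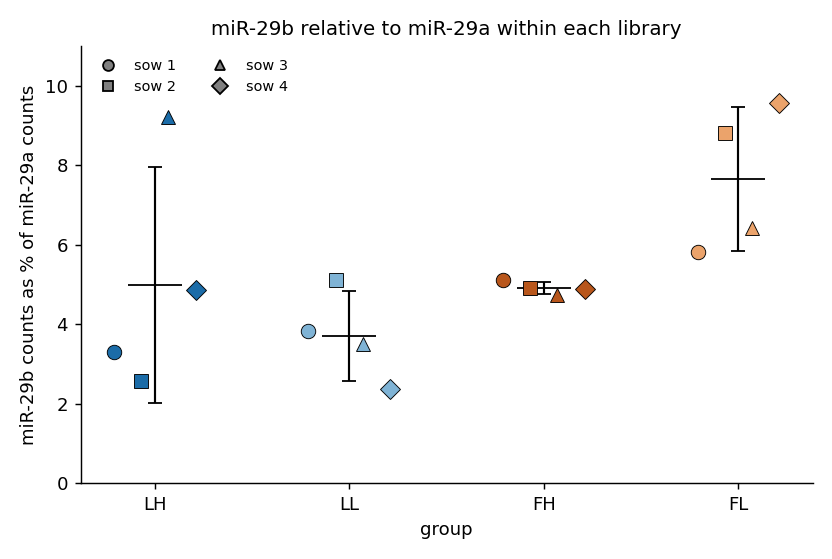
miR-29b counts as a percentage of miR-29a counts in each library, by group, 1 point per sow, with the group mean and SD. The 4 FL sows (5.81% to 9.55%) lie above the 4 FH sows (4.73% to 5.12%), and LH3 (9.21%) lies apart from the other LH sows.

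The members followed each other only in part. Over the 16 libraries the Pearson correlation of log2(CPM + 1) between miR-29a and miR-29b was 0.725, and 0.484 after each group's mean was taken out (descriptions over libraries that share groups and scaling factors). Taken by phase it was 0.475 over 8 luteal libraries and 0.579 over 8 follicular ones. Of 199 other known miRNAs, miR-29b ranked 34 in likeness to miR-29a with group means removed. The most alike to miR-29a were miR-19a (r = 0.818), of the miR-17 to miR-92 cluster, miR-130a (0.806) and miR-195 (0.804), and the same 3 led without centring (0.873, 0.867 and 0.844). The most alike to miR-29b were miR-30b-5p (0.856), miR-19b (0.759) and miR-206 (0.754) with centring, and miR-181c (0.922), miR-145-5p (0.918), a miRNA of smooth muscle, and miR-133b (0.900) without. miR-206 and miR-133b are muscle miRNAs.

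Other miRNAs known from matrix and scar biology were read from a list of 13, with 5 profibrotic and 8 antifibrotic members outside the miR-29 family, all of them tested. In luteal vs. follicular ovaries 1 of the 5 profibrotic miRNAs rose past the threshold and 0 fell, and among the 8 antifibrotic ones 1 rose and 1 fell (background 19.8%). The median log2 fold change was -0.50 for the profibrotic and -0.36 for the antifibrotic set, against 0.17 for all 445 entries. miR-199a-5p and miR-199b-5p had almost the same values in every group, so these 2 of the 5 profibrotic miRNAs are in effect 1 measurement, and the profibrotic median is that value. The list therefore did not move in 1 direction with phase.

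miR-21, which promotes fibroblast survival and matrix deposition, was the profibrotic one that rose, from 44291 ± 20658 CPM in follicular to 167753 ± 80414 CPM in luteal ovaries (SD, n = 8), a log2 fold change of 1.94 (SE 0.376; edgeR adjusted p = 0.00502). Its direction was opposite to that of miR-29b. miR-30d rose from 2854 ± 844 to 6194 ± 1986 CPM (log2 fold change 1.12, edgeR adjusted p = 0.00392). miR-101 fell from 22103 ± 8766 to 9736 ± 6582 CPM (log2 fold change -1.25, edgeR adjusted p = 0.0351), the same direction as miR-29b. Its adjusted p was under 0.05 in 16 of 29 alternative settings. miR-214, encoded with a miR-199 gene, had a log2 fold change of -0.89 with an edgeR adjusted p of 0.0288, short of the fold threshold. The adjusted p of miR-214 was under 0.05 in 13 of 29 alternative settings.

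In LL vs. FL miR-21 (2.41) and miR-30d (1.25) rose and miR-214 (-1.02) and miR-101 (-1.37) fell past the threshold (background 29.8%), the first pair also by edgeR adjusted p (0.00174 and 0.0304). In LH vs. FH miR-21 (1.61), miR-30d (1.13) and miR-429 (2.96) rose and none fell (background 12.4%), with no adjusted p under 0.05. Between fecundity classes the list had 1 call of 13 in each phase, miR-26a in LL vs. LH (-1.11, edgeR adjusted p = 0.253, background 13%) and miR-429 in FL vs. FH (4.46, edgeR adjusted p = 0.585, background 6.19%). miR-429 was also the 1 call in the interaction (-7.14, background 13.3%), and it ranged from 2.37 to 341 CPM among the FL sows. Among the LH sows miR-429 ranged from 2.01 to 103 CPM with a median of 6.72, against 1.79 to 4.76 CPM in FH.

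**Figure D4:**
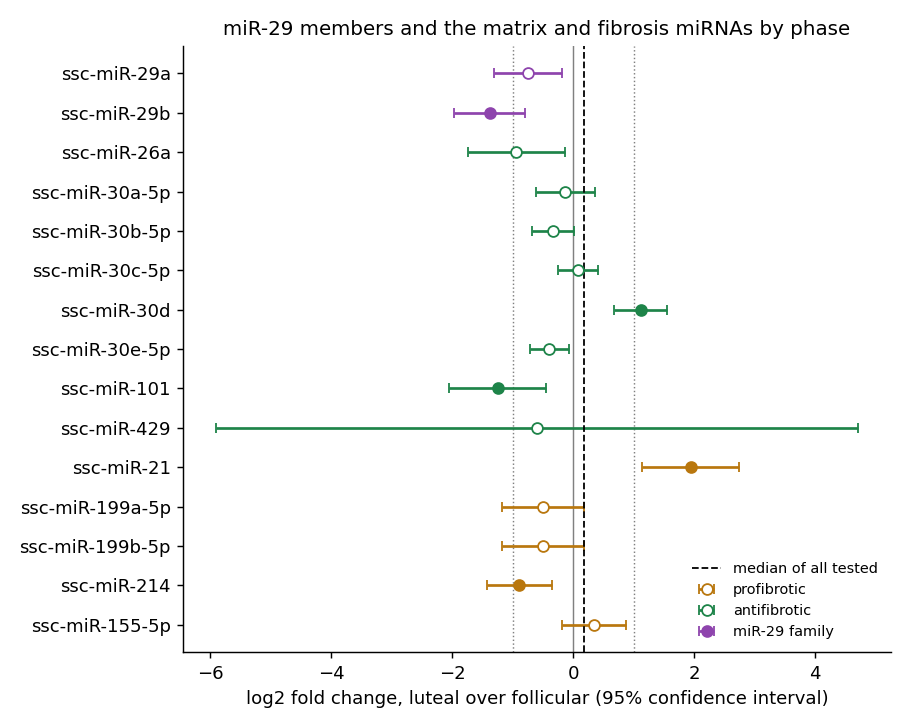
Log2 fold change in luteal vs. follicular ovaries (edgeR, 16 libraries) with 95% confidence intervals for miR-29a, miR-29b and the 13 miRNAs of the matrix and fibrosis list, by role. miR-21 (1.94) and miR-30d (1.12) lie on the luteal side and miR-29b (-1.38) and miR-101 (-1.25) on the follicular side.

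Some markers of other cell types also differed between the groups, in orders that varied by list. Of the muscle list (6 miRNAs, 5 tested) 3 fell past the threshold in luteal vs. follicular ovaries (background 7.64% lower and 12.1% higher), miR-133a-5p (-2.13), miR-133b (-2.59) and miR-206 (-1.50, edgeR adjusted p = 0.0513). miR-1 had -0.68 and did not pass, and miR-499-5p had 0.94, short of the fold threshold but with an edgeR adjusted p of 0.0344, and rose past the threshold in LL vs. FL (1.66). The summed level of the muscle list was 449 to 984 CPM in LL, 565 to 3034 in FL, 2155 to 3256 in LH and 1883 to 4256 in FH, with miR-208b at 0 in LL and FH. Of the granulosa list (3 miRNAs) miR-202-5p (2.02) and miR-224 (1.24, lost under 12 of 29 alternatives) rose, 1 of them with an edgeR adjusted p under 0.05. miR-383 had -2.06 and did not pass. The granulosa sums were 75.2 to 601 CPM in FL, 277 to 1306 in FH, 1213 to 2724 in LH and 1338 to 3873 in LL. Of the leukocyte list (4 miRNAs) 1 fell, miR-150 (-1.23), and 0 had an edgeR adjusted p under 0.05. miR-155-5p lay in the other direction (0.35) and did not pass. The leukocyte sums were 827 to 1370.4 CPM in LH, 1221 to 1941 in LL, 1489 to 2994 in FL and 1568 to 2069.8 in FH, with miR-142-5p at 0 in LH. The endothelial marker miR-126-5p had 0.87 and did not pass. Its level was 2461 to 11048 CPM in FL, 8134 to 11872 in FH, 7751 to 22206 in LH and 15242 to 26360.4 in LL. Mean muscle sums were 2838 CPM in FH, 2487 in LH, 1689 in FL and 684 in LL, so LL was lowest for both the muscle sum and miR-29b, while FL was highest for miR-29b and below LH for the muscle sum. The part of these cell types in the miR-29 values was not tested.

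The remaining lists were epithelium (5 miRNAs, 2 higher and 1 lower past the threshold in luteal vs. follicular ovaries, where 19.8% of all entries passed), liver (2 miRNAs, 0 called), erythrocyte (2 miRNAs, 0 called) and neural (5 miRNAs, 4 tested, 0 called, miR-124a at 0 in LH, LL and FH). Over all 16 libraries the sums ran from 145 to 21828 CPM for epithelium, 15.3 to 1679.5 for liver, 32.1 to 186 for erythrocytes and 22.3 to 182 for the neural list. The granulosa markers were counted in every group. Their mean sums were 2218 CPM in LL, 1938 in LH, 809 in FH and 328 in FL. The sum was thus higher in the luteal groups, although miR-383 alone lay in the other direction.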

How the data were processed

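Small RNA libraries of 16 ovaries (4 each in LH, LL, FH and FL) were analysed. The authors trimmed reads with Trimmomatic, mapped them to Sscrofa10.2 with Bowtie 2 (2.1.0), predicted further miRNAs with miRDeep and deposited raw counts of reads per miRNA and library, without normalization. The rule that assigned reads to miRNAs is not given in the sources used here. The submitters' processing notes also name DESeq2.

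The quasi-likelihood test of edgeR 4.0.16 (R 4.3.3) was run here on the whole count table after TMM scaling, and entries were filtered by filterByExpr (count minimum 10, total minimum 15), with p-values adjusted over all entries tested (Benjamini-Hochberg). Each comparison of 2 groups used its 8 libraries. Luteal vs. follicular used all 16 with fecundity as a term, and the interaction used 4 groups. CPM used TMM factors from all 16 libraries, and permutation tests and correlations used log2(CPM + 1). Sows are separate animals, so P sets a group difference against the variation between sows. With 1 library per sow, this variation includes that of library preparation and sequencing. The tests were checked on simulated counts.

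The members, the lists and the tests were chosen with earlier results of these data known. Other miRNAs named are the 3 most alike to each member and those of the fixed lists past a threshold. Alternatives were DESeq2 1.42.0, library totals only, TMM on known miRNAs, other filters, identical entries collapsed, summed members, a replicate block, all libraries in a single fit, covariates for parity and for the share of reads kept after cleaning, and leaving out each sow. No mature sequence was held in the files used here, so none is shown.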

Additional observations from a re-analysis of the deposited data

Results flagged for a closer look

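miR-29b in FL3 (588 CPM) lay far from the other FL sows (358 to 389.7 CPM), with a gap to its neighbour of 0.862 of the group's range. With library totals alone FL3 (449.7 CPM) lay below FL4 (479 CPM), so this gap depended on the scaling. For miR-29c the same share was 1 in FH, through FH4, and 1 in FL, through FL3, since the other 3 sows of each group were listed at 0. A share of 1 follows whenever 3 of 4 values are 0, so no chance rate applies to miR-29c. Of all 14 groups of 4 sows examined, the FL group of miR-29b was the remaining one past the limit, which chance passes in about 1 of 20 groups. Leaving out FH4 and FL3 together, a choice made after seeing the data, gave a luteal vs. follicular log2 fold change of -1.31 (edgeR adjusted p = 0.0227) for miR-29b and -0.63 for miR-29a.

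The miR-29b difference between fecundity classes differed between the phases by -1.27 on the log2 scale, with an edgeR adjusted p of 0.169.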

How the results depend on the processing

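Over the 12 differences of miR-29a and miR-29b and their 270 alternatives, 255 kept direction and side of the threshold, 3 lost the call, 8 gained one and 4 changed sign. For miR-29b in luteal vs. follicular ovaries the range was -1.53 to -0.95 and the adjusted p 3.17e-06 (DESeq2) to 0.142 (no filter). In LL vs. FL it kept the call under all 19, with adjusted p from 2.72e-12 (DESeq2) to 0.180 (no filter), and 0.0864 with a replicate block (-1.89).

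Counts of members past the threshold moved as follows. With library totals only they were 0 for luteal vs. follicular and 0 for the interaction (miR-29b -0.88), and the sign of miR-29a turned to 0.051 in LL vs. LH, 0.011 in FL vs. FH and 0.040 in the interaction, with permutation differences of 0.083 (p = 0.857, exact) and 0.011 (p = 0.943, exact). With no filter they were 2 for luteal vs. follicular, 2 for LL vs. FL and 1 for LH vs. FH, each gain being miR-29c, which rests on FH4 and FL3, and 0 for the interaction. With all members summed they were 0 for luteal vs. follicular and 0 for the interaction, and the sum, led by miR-29a, was called in LL vs. FL (-1.04). Parity as a covariate, partly confounded with fecundity, gave 1 in LL vs. LH (miR-29b -1.64). The share of clean reads as a covariate gave 1 in LH vs. FH (miR-29b -1.23) and turned miR-29a in FL vs. FH to 0.13. Among all 445 entries, library totals only gave 81 calls as higher and 17 as lower for luteal vs. follicular. For the interaction they gave 26 and 29. The shares called under the other settings are not given here, so these moves cannot be called particular to miR-29. The cause of the moves was not tested.

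Leaving out 1 sow gave 0 to 1 in LL vs. LH (1 without LH1, miR-29b -1.12, or LL1, -1.01), 0 to 0 in FL vs. FH, 0 to 0 in LH vs. FH, and 1 to 2 in LL vs. FL (miR-29a -1.08 without LL4, -1.14 without FL2 and -1.16 without FL4), and 1 to 1 in luteal vs. follicular and the interaction. Replicate numbers name different sows. In 4 of 24 same-numbered pairs deviations correlated over 0.1 (range -0.190 to 0.373). Differently numbered pairs were not compared, so this count cannot show whether the numbers link libraries. The replicate block changed no count of members. The shares of all entries called with the block, or without each sow, are not given here.

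miR-224, miR-150, miR-101, miR-206 and miR-30d lost their call under some alternatives. The counting error of miR-29a and miR-29b was at most 2.39% with each read taken as a separate molecule, although PCR copies were not marked. Intervals were wide with 4 sows per group, and the part of depth in this was not tested. The split of reads between miR-29a and miR-29c is unknown.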
